A study of Citrus sinensis with 4 samples.

Results

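This account follows 74 genes of sweet orange (Citrus sinensis) fruit endocarp whose level was several-fold higher at 70 than at 50 days after full bloom in both cultivars studied. They were picked out of the 28436 genes whose identifiers begin with Cs or orange1.1t, 0.26% of them, in tables of 29036 genes. They were chosen by their levels in the same 4 libraries that are described here. The level used for the choice was CPM (fragments scaled to a library sum of 1000000) plus 0.5. A gene was taken when its lower level at 70 days, in either cultivar, was at least 4 times its higher level at 50 days and was itself at least 5. The difference between the stages is therefore what chose these genes, and all values of it below are a description without a test.

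The tissue was endocarp, the innermost part of the wall of the fruit, from the cultivars 'Dahongtiancheng' and 'Bingtangcheng'. Both cultivars were sampled at both stages, and each of the 4 resulting samples was sequenced as 1 poly(A)-enriched library. The libraries are called DH70 (Dahongtiancheng, 70 days), BT70 (Bingtangcheng, 70 days), DH50 (Dahongtiancheng, 50 days) and BT50 (Bingtangcheng, 50 days) after their titles. How many fruits or trees went into a library is not stated in the labels. A difference between 2 libraries thus has no replicate check, and an effect of stage or cultivar cannot be told apart from other differences between the libraries.

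The endocarp gives rise to the juice sacs, the part of a citrus fruit that is eaten. In this early period the fruit moves, in general, from growth by cell division to growth by enlargement of the juice sac cells, whose vacuoles come to hold sugars and organic acids. Genes that come on during this shift are commonly those of cell wall loosening, water and solute transport, and the metabolism of sugars, acids, flavonoids and terpenes. The files pair their identifiers with no gene names, and 0 of the identifiers matched the RefSeq gene table for the Valencia assembly DVS_A1.0. No function is therefore given to any gene here, no pathway could be counted, and the labelled tissue could not be checked against marker genes.

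Total fragments were 16192148 in DH70, 16445383 in BT70, 16253052 in DH50 and 14040916 in BT50. In these libraries 1 fragment is worth between 0.0608 and 0.0712 CPM. Intervals and limits given here cover counting error only, because each combination of cultivar and stage has 1 library. Fragments were not counted as single molecules by identifiers, so the true counting error may be larger. Folds between libraries were computed after scaling with TMM factors (trimmed mean of M-values, edgeR), which correct for a few abundant genes taking up much of a library. Over all expressed genes, scaling to library sums alone puts the median of the log2 ratio of 70 over 50 days at -0.20 in Dahongtiancheng and -0.30 in Bingtangcheng, against values within 0.01 of 0 with TMM. With TMM in place of library sums the rule takes 97 genes, and these include all 74.

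Genes going up by this rule were fewer than genes going down. The mirrored rule, with the stages exchanged, took 356 genes. With TMM scaling the mirrored rule took 287, against 97 upward.

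The 74 genes together took 2.68% of the fragments of DH70 (95% binomial interval, Clopper-Pearson, 2.67 to 2.69) and 1.69% of BT70 (1.69 to 1.70). Of DH50 they took 0.207% (0.205 to 0.210), and of BT50 0.169% (0.167 to 0.171). Each library's share was carried by a few genes: the 8 genes with the most 70-day fragments held 75.3% of the group's fragments in DH70 and 74.8% in BT70. These 8 held 76.6% in DH50 and 76.5% in BT50, so the concentration was much alike at both stages. In bulk tissue a larger share of cells of 1 type and more RNA per cell cannot be told apart.

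**Figure D1:**
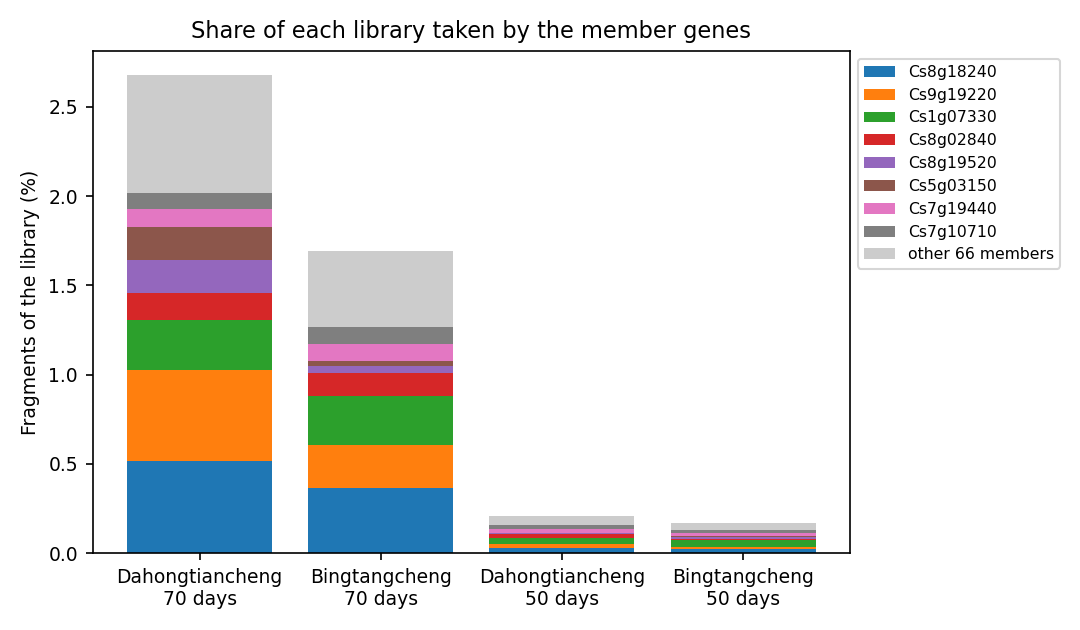
Percent of all fragments of each library that fell in the 74 genes, with the 8 genes that had the most 70-day fragments drawn separately and the other 66 in light grey. The bars reach 2.68% in DH70 and 1.69% in BT70, against 0.207% in DH50 and 0.169% in BT50.

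Cs8g18240 and Cs9g19220 had the most fragments at 70 days. Cs8g18240 (chromosome 8, 20906302 to 20920121, plus strand, listed length 2376 bases) had 83137 fragments in DH70 and 60203 in BT70, against 4604 in DH50 and 3085 in BT50. Its level was 20.9-fold higher at 70 days in Dahongtiancheng (95% counting interval 20.3 to 21.5) and 20.3-fold higher in Bingtangcheng (19.6 to 21.1). Ordered by fragments it was gene number 2 of DH70 and number 7 of BT70, and number 547 of DH50 and number 791 of BT50.

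Cs9g19220 (chromosome 9, 18215576 to 18218555, minus strand, 2572 bases) had 83110 fragments in DH70 and 39756 in BT70, against 3541 in DH50 and 1907 in BT50. The 70-day level was 27.2-fold higher in Dahongtiancheng (26.3 to 28.1) and 21.7-fold higher in Bingtangcheng (20.7 to 22.7). Both genes thus differed by a similar factor between the stages in the 2 cultivars, while only Cs9g19220 differed at least 2-fold between the cultivars at 70 days. Its level was 2.08-fold higher in Dahongtiancheng than in Bingtangcheng (2.06 to 2.11), and that of Cs8g18240 was 1.38-fold higher (1.36 to 1.39).

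Per kilobase of listed length, the mean of the 70-day libraries ran from 3.37 CPM per kilobase for Cs9g02550 to 2600 for Cs1g07330, with a median of 40.6. There were 20 genes over 100 on this scale. The deposited FPKM of Cs1g07330 was much higher than its value here, 22200 in DH70 and 20700 in BT70. Over the group the median ratio of deposited FPKM to this scale was 1.25 in DH70 and 1.27 in BT70. The reason for the gap at Cs1g07330 was not tested. Of the 100 genes with the most fragments in each library, 7 belonged to the group in DH70 and 6 in BT70, and 0 did in DH50 or BT50. The group thus spans abundant and scarce transcripts.

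**Figure D2:**
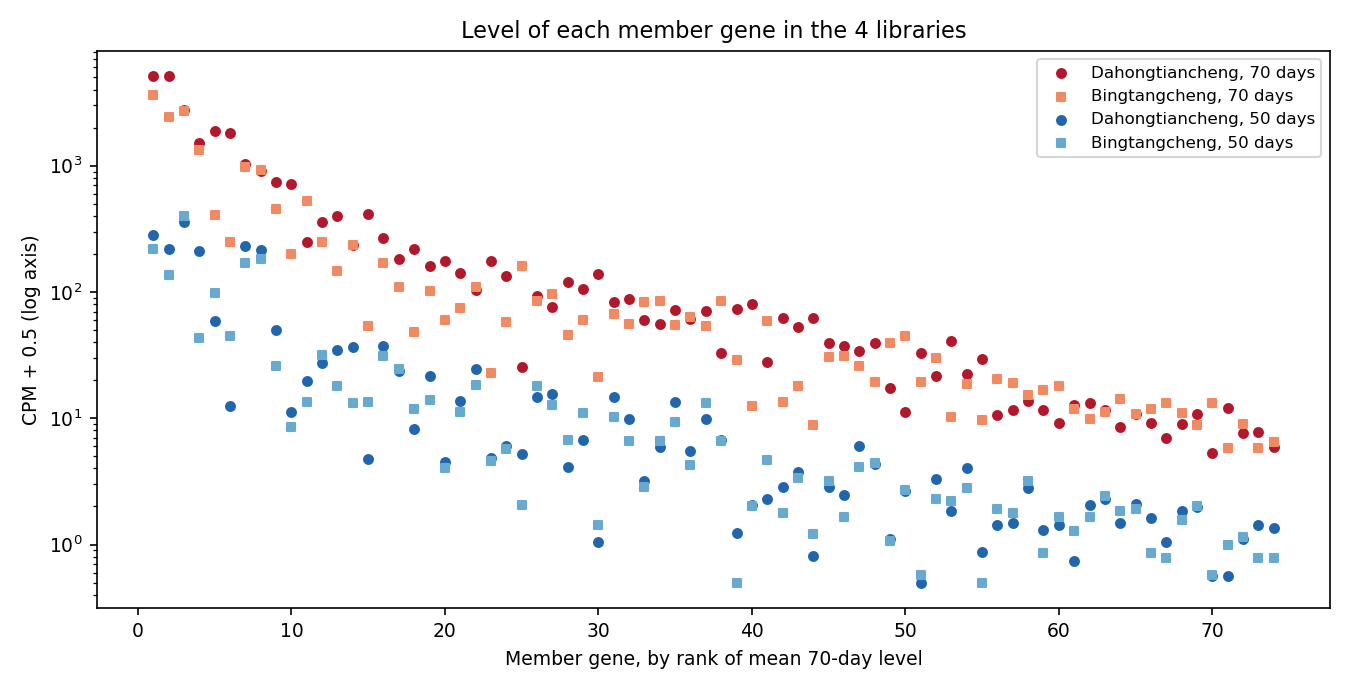
Level of each of the 74 genes in the 4 libraries, as CPM plus 0.5 on a log axis, ordered by the mean 70-day level; circles are Dahongtiancheng and squares Bingtangcheng, red tones 70 days and blue tones 50 days. By the rule, both 70-day points of a gene lie at least 4-fold above both of its 50-day points, and the gap between the 70-day points of the cultivars differs widely from gene to gene.

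The ratio of the lowest 70-day to the highest 50-day level had a median of 5.53. It was under 4.5 for 17 genes, between 4.5 and 8 for 37 and at least 8 for 20, of which 4 reached 16. Just inside the threshold stood orange1.1t02795 with a ratio of 4.03 and Cs7g19420 with 4.05. Just outside stood orange1.1t05092 with 3.94 and Cs3g21500 with 3.93. Fragments of Cs3g21500 numbered 8155 in DH70 and 9855 in BT70, against 2033 in DH50 and 1795 in BT50. In all, 47 genes past the same floor had ratios between 3 and 4, those named just outside included, so the threshold cuts through a continuous range. The floor mattered little: only 3 genes met the fold but not the floor, the nearest being Cs7g04980 with a lower 70-day level of 4.21, while the lowest level inside was 5.26 for orange1.1t02751.

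Cs1g05770 and Cs5g14880 had the highest ratios, 34.0 and 23.5. Cs1g05770 (chromosome 1, 5556924 to 5558153, minus strand, 425 bases) had 522 fragments in DH70 and 311 in BT70, against 0 in DH50 and 1 in BT50. Cs5g14880 (chromosome 5, 12857100 to 12859739, plus strand, 1485 bases) had 1171 fragments in DH70 and 470 in BT70, against 12 in DH50 and 0 in BT50. The level of Cs5g14880 was 113-fold higher at 70 days in Dahongtiancheng (64.4 to 219). In Bingtangcheng, with 0 fragments at 50 days, it was at least 132-fold higher by the lower end of the 95% counting interval.

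Few genes of the group had 0 or nearly 0 fragments at 50 days, though 18 of the 74 were under 1 CPM in DH50 and 15 in BT50. A count of 0 occurred for 3 of the 74 genes in 1 of the 50-day libraries, and 5 genes had fewer than 10 fragments in both of them. These 5, named after their values were seen, were Cs1g05770, Cs3g16310, Cs3g18120, Cs4g17430 and orange1.1t02751. Cs3g16310 (chromosome 3, 20172420 to 20172842) had 468 fragments in DH70 and 152 in BT70, against 6 in DH50 and 0 in BT50. Cs4g17430 (chromosome 4, 17140877 to 17141902) had 188 in DH70 and 88 in BT70, against 1 in DH50 and 7 in BT50. Cs3g18120 (chromosome 3, 21699641 to 21700537) had 105 in DH70 and 208 in BT70, against 9 in DH50 and 4 in BT50. In orange1.1t02751 (unplaced sequence, 42272968 to 42274410) there were 77 fragments in DH70 and 211 in BT70, against 1 in DH50 and 1 in BT50. At 70 days Cs1g05770, Cs3g16310 and Cs4g17430 had more fragments in Dahongtiancheng, and Cs3g18120 and orange1.1t02751 had more in Bingtangcheng. At the other end, 50-day counts reached 5799 fragments in DH50 and 5614 in BT50, both for Cs1g07330.

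The size of the difference between the stages was next set side by side in the cultivars. The log2 ratio of 70 over 50 days had a median of 3.52 in Dahongtiancheng, with a range from 2.27 to 8.10, and a median of 3.50 in Bingtangcheng, with a range from 2.32 to 7.95. Over the 16692 expressed genes the medians were 0 and -0.01. The ratio was larger in Dahongtiancheng for 33 of the 74 genes and larger in Bingtangcheng for 41. It was within 2-fold between the cultivars for 41 genes, at least 2-fold larger in Dahongtiancheng for 19 and at least 2-fold larger in Bingtangcheng for 14. Neither cultivar therefore had the larger stage ratio throughout, and the median difference of the log2 ratios, Dahongtiancheng minus Bingtangcheng, was -0.05, against -0.02 over all expressed genes.

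Each cultivar taken by its own pair of libraries gave longer lists. The same fold and floor took 276 genes in Dahongtiancheng, 0.971% of the genes, and 178 in Bingtangcheng, 0.626%. Both lists held 96 genes, which is 34.8% of the Dahongtiancheng list and 53.9% of the Bingtangcheng list. Of these 96, 22 missed the stricter rule because the lowest 70-day level was set against the highest 50-day level of either cultivar.

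**Figure D3:**
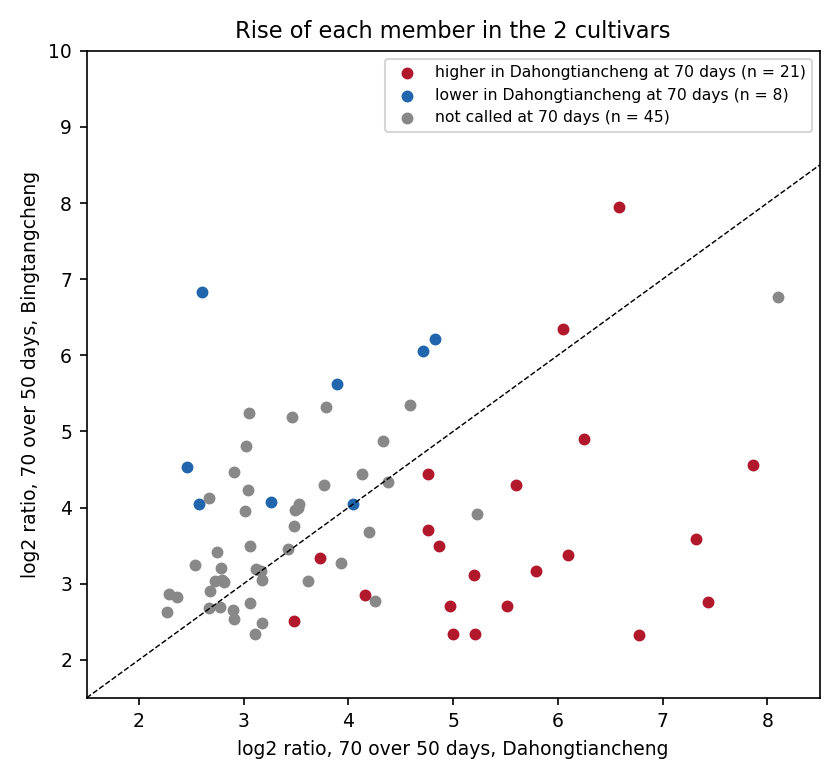
Log2 ratio of 70 over 50 days (TMM-scaled, prior count 2) of each of the 74 genes in Dahongtiancheng (horizontal axis) and Bingtangcheng (vertical axis), coloured by the call between the cultivars at 70 days; the dashed line marks equal ratios. Points lie on both sides of the line, 33 genes with the larger ratio in Dahongtiancheng and 41 in Bingtangcheng.

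The comparison of the cultivars at 70 days uses a contrast that the rule did not fix, although the rule drew on the same 2 libraries. A call required at least 10 fragments and 1 CPM, scaled with TMM, in either library, a ratio of 2-fold or more, and a 99% counting interval that did not reach 1. Of the 74 genes, all of which passed the filter, 21 were higher in Dahongtiancheng than in Bingtangcheng (28.4%), 8 were lower (10.8%) and 45 were not called. Among all 15895 genes tested, 7.21% were higher and 5.64% lower. Genes that met the 70-day floor of the rule are the closer background: of these 11968 genes, Citrus_newGene models included, 2.81% were higher and 2.84% lower. By this call the 70-day libraries of the cultivars differed in 39.2% of the group, against 5.65% of genes past the same floor. The ratio that chose the group is built from the same 70-day levels as the call. These shares are therefore a description without a test. A high share was also found in the genes of the mirrored rule. Of these, 306 passed the filter at 70 days, the stage at which they are low, and 5.23% were higher and 25.5% lower in Dahongtiancheng, 30.7% in all, with a median log2 ratio of -0.52. At 50 days, the stage at which they are high, 4.21% of the 356 were called, against 1.88% of the 12898 genes past the floor at 50 days. The median size of the log2 ratio at 70 days, whatever its sign, was 0.69 in the 74 genes and 0.66 in the 306. A scarce gene can pass the filter through the library in which it is high. This can raise the values of the 306, so the sets are not equated.

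Genes outside the rule are likewise given as a description only, because the ratio that sorts them is built from the same 70-day levels as the cultivar call. Among the 47 genes with a ratio between 3 and 4, just outside the rule, 9 were higher in Dahongtiancheng (19.1%) and 3 lower (6.38%). Among the 11698 genes past the floor with a ratio under 3, which include genes that were lower at 70 days, 2.50% were higher and 2.78% lower. The log2 ratio of Dahongtiancheng over Bingtangcheng had a median of 0.34 in the 74 genes, 0.20 in the 47 and -0.03 in the 11698. The quartiles of the 74 genes were -0.31 and 1.07, against -0.30 and 0.25 for the 11968 genes past the floor, so the wider spread lay mainly on the side of Dahongtiancheng. The 21 higher genes had log2 ratios of up to 2.95, and 10 of them differed at least 4-fold. The 8 lower genes lay between -2.68 and -1.03, and 2 of them differed at least 4-fold. With 1 library per combination these shares compare libraries, and no replicate spread stands behind them.

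**Figure D4:**
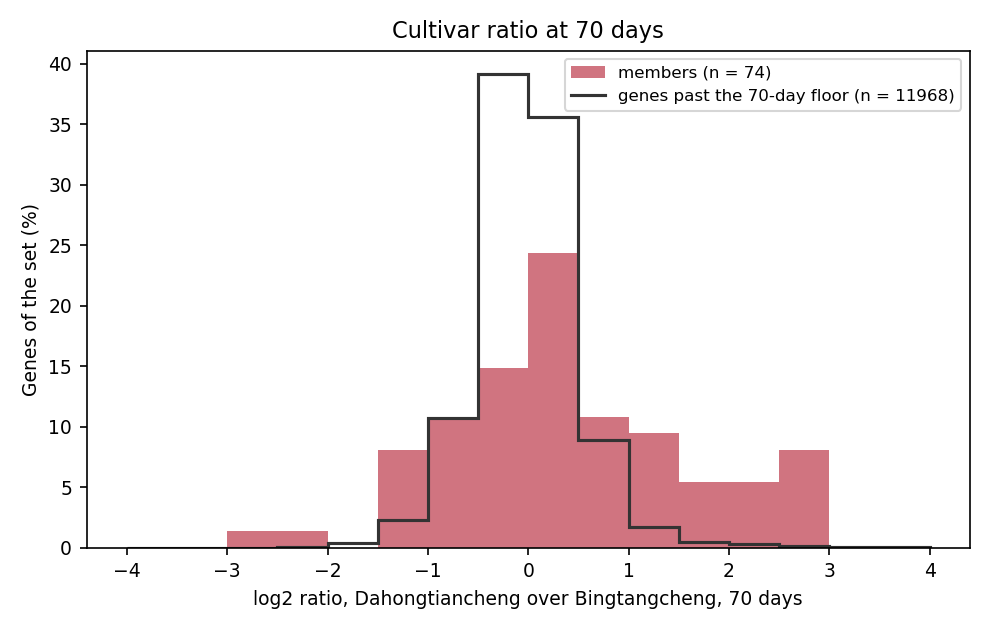
Percent of genes in each bin of 0.5 of the log2 ratio of Dahongtiancheng over Bingtangcheng at 70 days, for the 74 genes (filled) and for the 11968 genes past the 70-day floor of the rule (outline). The 74 genes are spread more widely, with a median of 0.34 against -0.03, and more of them lie above 1 than below -1.

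By level, 22 of the 74 genes had a mean over 100 CPM at 70 days, 32 had 20 to 100 and 20 had less than 20. In the first class 8 genes were higher and 1 lower in Dahongtiancheng, with a median log2 ratio of 0.67. In the second class 11 were higher and 5 lower, with a median of 0.38, and in the third 2 were higher and 2 lower, with a median of -0.24. The classes were cut on the same 70-day libraries that made the calls, and no share of all genes at these levels stands beside them. These counts are therefore given without a reading. Scaled with TMM, the fragments of all 74 genes summed were 1.55-fold higher in Dahongtiancheng than in Bingtangcheng at 70 days, and 1.52-fold without the 8 most abundant genes. At 50 days these ratios were 1.28 and 1.27.

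Cs1g12560 and orange1.1t02795 had the highest ratios of Dahongtiancheng to Bingtangcheng at 70 days. Cs1g12560 (chromosome 1, 15649638 to 15650697, minus strand, 953 bases) had 2872 fragments in DH70 and 368 in BT70, and 71 in DH50 and 57 in BT50. It was 7.78-fold higher in Dahongtiancheng at 70 days (6.98 to 8.69), and at 50 days its ratio was 1.12, with an interval that held 1 (0.777 to 1.61). Its stage ratio was accordingly 46.8 (37.0 to 60.1) in Dahongtiancheng and 6.72 (5.07 to 9.05) in Bingtangcheng.

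The gene orange1.1t02795 (unplaced sequence, 42847389 to 42849374, 1986 bases) had 6697 fragments in DH70 and 883 in BT70, a 7.56-fold higher level (7.05 to 8.12). It had 69 fragments in DH50 and 182 in BT50, so the order of the cultivars was the opposite one. The stage ratio was 112 in Dahongtiancheng (88.6 to 145) and 5.05 in Bingtangcheng (4.30 to 5.96).

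Cs8g09070 and Cs6g16750 had the lowest ratios. Cs8g09070 (chromosome 8, 7325613 to 7327542, plus strand, 1509 bases) had 407 fragments in DH70 and 2619 in BT70, a ratio of 0.155 (0.139 to 0.172). Cs6g16750 (chromosome 6, 17394936 to 17400081, minus strand, 1881 bases) had 175 in DH70 and 728 in BT70, a ratio of 0.240 (0.202 to 0.283). Cs6g16750 had 35 fragments in DH50 and 31 in BT50, and its interval then held 1 (ratio 1.01, interval 0.606 to 1.70).

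Other genes differed little between the cultivars at 70 days. The smallest differences among genes with a mean over 50 CPM at 70 days were those of Cs2g12010 and Cs1g07330. Cs1g07330 (chromosome 1, 7538043 to 7539430, plus strand, 1055 bases) had 44988 fragments in DH70 and 44538 in BT70, against 5799 in DH50 and 5614 in BT50. Its cultivar ratio was 1.01 at 70 days (0.994 to 1.02), and its stage ratio was 8.98 (8.73 to 9.23) in Dahongtiancheng and 8.26 (8.03 to 8.49) in Bingtangcheng. It was thus among the most abundant genes of the group and nearly equal in the cultivars at both stages. Cs2g12010 (chromosome 2, 8998554 to 8999862, plus strand, 871 bases) had 3845 fragments in DH70 and 3841 in BT70, with a cultivar ratio of 0.998 (0.954 to 1.04), and 591 in DH50 and 179 in BT50.

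At 50 days the genes of the group were low, and 14 of the 74 had too few fragments for the same rule. Of the other 60, 5 had a called level higher in Dahongtiancheng than in Bingtangcheng and 3 a lower one. Over all 16139 genes tested, 2.73% were higher and 3.62% lower. Because a scarce gene can pass the filter through the library in which it is high, these counts are given without a reading. Cs8g02840 and Cs2g12010 had the highest ratios. Cs8g02840 (chromosome 8, 1227466 to 1231136, plus strand, 2524 bases) had 3450 fragments in DH50 and 596 in BT50, a 5.19-fold higher level (4.76 to 5.67). It had 24660 in DH70 and 21662 in BT70, and this ratio was 1.13 (1.11 to 1.16). Cs2g12010 was 2.96-fold higher in Dahongtiancheng at 50 days (2.50 to 3.52).

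Both of these genes therefore had different levels at 50 days and nearly the same level at 70 days. The lowest ratios at 50 days were those of Cs5g03150 and orange1.1t02795. Cs5g03150 (chromosome 5, 1577848 to 1580780, minus strand, 2106 bases) had 29313 fragments in DH70 and 4072 in BT70, and 195 in DH50 and 625 in BT50. It was 7.17-fold higher in Dahongtiancheng at 70 days (6.94 to 7.42), and its ratio at 50 days was 0.280 (0.237 to 0.329). Its stage ratio was 174 in Dahongtiancheng (151 to 201) and 6.78 in Bingtangcheng (6.23 to 7.39).

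Called higher in Dahongtiancheng at both stages was 1 gene of the group, Cs5g10820, and 1 was called lower at both, Cs3g14610. Called in opposite directions were 3 genes, of which 2 were lower in Dahongtiancheng at 50 days and higher at 70 days and 1 the reverse. The sign of the cultivar log2 ratio was the same at both stages for 38 of the 74 genes, which include the 14 under the count filter at 50 days. The same counts over all genes are not given, so these are a description only.

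**Figure D5:**
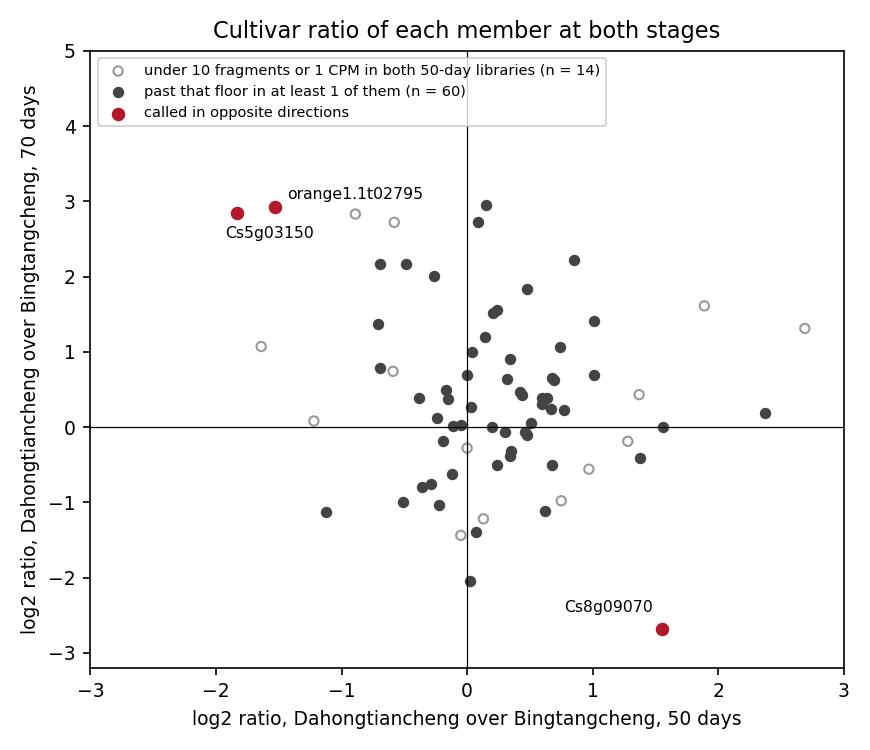
Log2 ratio of Dahongtiancheng over Bingtangcheng at 50 days (horizontal axis) and at 70 days (vertical axis) for each of the 74 genes; open circles are the 14 genes under the count filter at 50 days, and red points the 3 genes called in opposite directions. The points fill all 4 quadrants.

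An additive fit with stage as a second term used the 2 stages of a cultivar in place of replicates. It has 1 residual degree of freedom per gene, a cultivar difference that depends on the stage counts as error, and its p-values measure only the spread between these libraries. At an adjusted p of 0.05 (quasi-likelihood test of edgeR, Benjamini-Hochberg over 16581 genes) 0 of the 74 genes and 0 of all genes (0.0%) were called between the cultivars. An unadjusted p under 0.05 in edgeR was reached by 17 of the 74 genes (23.0%), 16 higher and 1 lower in Dahongtiancheng, against 4.42% of all genes tested. DESeq2 with the same terms called 1 of the 74 genes, Cs5g10820, with 53 genes higher and 22 lower in all.

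Cs5g10820 (chromosome 5, 7646094 to 7647508, minus strand, 852 bases) had 6415 fragments in DH70 and 2413 in BT70, and 556 in DH50 and 246 in BT50. Its level was 2.65-fold higher in Dahongtiancheng at 70 days (2.53 to 2.78) and 2.03-fold higher at 50 days (1.74 to 2.36). The adjusted p was 0.00693 with DESeq2 and 0.490 with the quasi-likelihood test of edgeR, so the call depended on the tool.

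The group was spread over all 9 numbered chromosomes, with 60 genes of the form Cs, and over unplaced sequence, with 14 of the form orange1.1t. No source used here names the genome build of the positions. Of the Cs and orange1.1t genes past the 70-day floor, the share in the group was 0.626% over the genome. It ran from 0.214% on chromosome 4 (2 of 933 genes) to 0.963% on chromosome 9 (7 of 727), and was 0.960% on chromosome 8 (8 of 833) and 0.931% on unplaced sequence (14 of 1503). Chromosome 5 held 12 of the genes. With so few genes per chromosome the shares rest on small counts.

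By median length, the gene models of the group were shorter than those of other genes past the floor. They were longer than the median of 1176 bases over all 28436 Cs and orange1.1t genes. Their median listed length was 1429 bases (middle of the group 861 to 2047), against 1771 (1188 to 2598) over the 11819 Cs and orange1.1t genes past the 70-day floor and 1572 over the 356 genes of the mirrored rule. The listed length equalled the genomic span, as it does for a model without an intron, in 14 of the 74 genes (18.9%), against 8.99% of the genes past the floor and 17.4% of those of the mirrored rule. Genes on the plus strand made up 50.0% of the group. The part that length plays in the choice of genes, which used fragments without division by length, was not tested.

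Neighbouring genes occurred in a few places. In the order of the listed genes, 4 of the 74 lay directly beside another of them. The first pair was Cs8g19520 (chromosome 8, 21670533 to 21675026, plus strand) and Cs8g19540 (21677448 to 21677900, minus strand), 2.42 kb apart. Cs8g19520 had 30212 fragments in DH70 and 6668 in BT70, against 944 in DH50 and 1367 in BT50. For Cs8g19540 the fragments were 1301 in DH70 and 195 in BT70, against 25 in DH50 and 21 in BT50. Both were higher in Dahongtiancheng at 70 days, 4.52-fold (4.40 to 4.64) and 6.65-fold (5.72 to 7.77).

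The second pair was Cs5g27560 (chromosome 5, 30109171 to 30109954, minus strand) and Cs5g27570 (30127238 to 30129165, plus strand), 17.3 kb apart. Cs5g27560 had 1007 fragments in DH70 and 214 in BT70, against 38 in DH50 and 18 in BT50. For Cs5g27570 there were 5748 in DH70 and 4090 in BT70, against 435 in DH50 and 440 in BT50. At 70 days Cs5g27560 was 4.69-fold higher in Dahongtiancheng (4.04 to 5.46) and Cs5g27570 1.40-fold (1.35 to 1.46), so this pair did not share its cultivar difference in size.

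With up to 1 gene between them, 8 genes in 4 pairs were neighbours, and 1 of the added pairs lay in a stretch of 56.3 kb on chromosome 5 that was described after its values were seen. This stretch, 12817109 to 12873441, lists 10 genes. Of these, 3 belong to the group, Cs5g14800, Cs5g14880 and Cs5g14900, and the other 7 had at most 2 fragments in any library. Cs5g14800 had 2580 fragments in DH70 and 1676 in BT70, against 342 in DH50 and 189 in BT50. For Cs5g14900 there were 1430 in DH70 and 909 in BT70, against 153 in DH50 and 85 in BT50. The stage ratios of Cs5g14800 and Cs5g14900 were alike, 8.73 (7.80 to 9.80) and 9.23 (7.94 to 10.8) for Cs5g14800 in Dahongtiancheng and Bingtangcheng, and 10.8 (9.15 to 12.9) and 11.1 (8.91 to 14.1) for Cs5g14900. That of Cs5g14880, which lies between them, was far higher, 113 in Dahongtiancheng and at least 132 in Bingtangcheng, as given above. Cs5g14800 and Cs5g14900 both have a listed length of 1569 bases, and whether fragments of similar copies were split between them was not tested.

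The other added pair was Cs7g19420 and Cs7g19440 on chromosome 7, 14.6 kb apart on the same strand. Cs7g19420 (15372219 to 15372833) had 3539 fragments in DH70 and 784 in BT70, against 126 in DH50 and 160 in BT50. For Cs7g19440 (15387407 to 15391429) they were 16773 in DH70 and 16121 in BT70, against 3776 in DH50 and 2373 in BT50. The gene between them, Cs7g19430, had 577 fragments in DH70 and 434 in BT70, against 508 in DH50 and 459 in BT50. A stage difference was thus seen on both sides of a gene whose own ratio of lowest 70-day to highest 50-day level was 0.810.

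Of the 74 genes, 3 overlap another listed gene model, in each case also one on the other strand, and the strandedness of the libraries is not given. They are Cs2g24360, Cs2g26630 and Cs5g14800. The models overlapping Cs5g14800 had 0 fragments in all 4 libraries. The genomic span of Cs2g26630 shares 12815 bases with that of Cs2g26590 on the same strand. Cs2g26590 had 1293 fragments in DH70 and 1670 in BT70, against 1836 in DH50 and 1973 in BT50. Further models overlap Cs2g26630, among them Cs2g26600 on the other strand (7392 bases). How fragments were assigned within these overlaps was not tested. Cs2g24360 had 11648 fragments in DH70 and 3261 in BT70, against 175 in DH50 and 112 in BT50. Its neighbour Cs2g24350, which shares 100 bases with it, had 2411 in DH70 and 830 in BT70, against 292 in DH50 and 203 in BT50. Reads of these 2 genes cannot be told apart with certainty within the overlap.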

How the data were processed

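Poly(A) RNA of endocarp was sequenced in 4 libraries, 1 per cultivar and stage. Per the file headers, each deposited table lists for every gene the raw count of fragments, a normalized count and an FPKM. The raw count was used throughout. The deposited normalized count, a scaled signal, was not used. The deposited FPKM values served only as an alternative. No source used here names the aligner, counter, build or annotation. A header line recurring 1 time in each file was skipped. Totals were 14040916 to 16445383 fragments.

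The rule used counts per library sum (pseudocount 0.5). Other ratios used TMM factors of 0.927 (DH70), 0.910 (BT70), 1.07 (DH50) and 1.11 (BT50), with a prior count of 2. Counting intervals are exact conditional (Clopper-Pearson) ones, 95% in parentheses and 99% for calls. The additive fit used edgeR 4.0.16 and DESeq2 1.42.0 in R 4.3.3. Scripts were tested on simulated data. Members, groupings and lists were chosen with earlier results of these data known. Named genes were at most 2 per direction and comparison, at the extremes of each ratio, in fragments, at the threshold, and beside another member. Other genes were named outside this rule. Some of these are said to be chosen after seeing their values. Among those not so marked are Cs5g10820, Cs3g14610 and the genes that overlap another model. Gene lists by description (among them flavonoids, sugar transport, citrate, cell wall, peel, seed and vascular markers) could not be filled. Alternatives covered scaling, pseudocount, fold, floor, filter, interval and tool.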

Additional observations from a re-analysis of the deposited data

Results flagged for a closer look

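Cs5g03150, orange1.1t02795 and Cs8g09070 drew attention because the difference between the cultivars went in opposite directions at the 2 stages. The log2 ratio of Dahongtiancheng over Bingtangcheng was larger at 70 than at 50 days by 4.67 for Cs5g03150 and by 4.44 for orange1.1t02795, and its change for Cs8g09070 was -4.23. With 1 library per combination the difference between the stages was not tested. Cs8g09070 had 407 fragments in DH70 and 2619 in BT70, and 76 in DH50 and 22 in BT50.

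Gene models named Citrus_newGene, 600 in all, lie outside the rule, and 2 of them met its fold and floor. Citrus_newGene_2305 (unplaced sequence, 44192043 to 44194611) had 6768 fragments in DH70 and 302 in BT70, against 20 in DH50 and 1 in BT50, a ratio of lowest 70-day to highest 50-day level of 10.9. Citrus_newGene_334 (chromosome 2, 26084567 to 26086703) had 461 in DH70 and 112 in BT70, against 17 in DH50 and 13 in BT50, with a ratio of 4.73.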

How the results depend on the processing

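No paired analysis was possible because each group has 1 library, so no replicate number could serve as a block. The additive fit, which sets the cultivars side by side within each stage, is the nearest to one. The number of genes taken by the rule was 74 as reported, 121 with a fold of at least 3, 20 with a fold of at least 8, and 276 and 178 in the Dahongtiancheng and the Bingtangcheng pair alone. Under the other planned settings it lay between 60 (floor of 10) and 107 (deposited FPKM). With a fold of at least 4, 10 genes were higher and 2 lower in Dahongtiancheng at 70 days, and 1 and 0 at 50 days. Library sums left 3 higher at 50 days. DESeq2 called 1 gene between the cultivars. The share of fragments without the 2 most abundant genes was 1.65% in DH70, 1.08% in BT70, 0.157% in DH50 and 0.133% in BT50. Without the 100 most abundant genes of each library it was 0.916%, 0.598%, 0.241% and 0.194% in the same order. Neighbouring genes numbered 7 in the order of genes with at least 10 fragments and 8 with up to 1 gene between. The median cultivar log2 ratio at 70 days stayed between 0.25 and 0.38. For single named genes, the cultivar log2 ratio at 70 days was recomputed with library sums, median-of-ratios scaling and deposited FPKM. Of these 51 values, 45 kept to the reported value or call, 6 moved beyond their counting interval and 0 reversed. Stage ratios and 50-day cultivar ratios of single genes were not among them.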
